A study of Mus musculus with 96 samples.

Results

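The immediate early response to serum was followed in primary mouse embryonic fibroblasts at 0.5, 1 and 1.5 h after serum, each hour set against the starved cells of the same time course. Of the 96 libraries in the series, 9 were chosen by their labels alone, 5 taken within 1.5 h after serum (early) and 4 taken from starved cells, and all 15895 genes of the table were compared. The cells were CF-1 fibroblasts of embryonic day 13, kept for 36 h in 0.5% fetal calf serum and then given 20% serum at time 0, and the labels name no genetic change and no drug. The time courses are called Cycle 1 and Cycle 2. Cycle 1 gave libraries at -1 and 0 h (starved) and at 1 and 1.5 h (early), and Cycle 2 gave libraries at -1 and 0 h and at 0.5, 1 and 1.5 h. Each hour of a Cycle is 1 library. Since the labels do not tie libraries to separate cultures or embryos, the p-values measure only the spread between these libraries, which may be technical. The values are exon reads scaled to the same total in every library, and because they are not divided by gene length they were compared between libraries and never between genes. The 6 libraries at 2, 2.5 and 3 h were used only to show where the first hours differ from those after them.

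Immediate early genes are transcribed within minutes of a mitogen signal by factors that the cell already holds, so their induction needs no new protein. Serum growth factors and lipids act through the MAPK cascade on ternary complex factors at Srf, through actin on Mrtf at Srf, and through other kinases on Creb and NF-kB. The first products are transcription factors such as Fos, Jun, Egr1 and Myc, together with phosphatases, Sprouty proteins and mRNA decay factors that end the signal, and secreted ligands that act on neighbouring cells.

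The libraries at 0 h stood apart from those at -1 h although the paper states that both were taken before serum was added. Whether serum had reached the cells of the 0 h libraries was not tested, and 0 h is part of the starved baseline unless a single hour is named. At 0 h, transcripts of immediate early genes were already many times more abundant than at -1 h in both Cycles, so results are given with the starved libraries together and with either hour as the baseline. The 0.5 h library of Cycle 2 stood apart in another way. Its summed value over 7 blood and macrophage markers was 732, against 3412 to 4812 in the other starved and early libraries of Cycle 2, and its summed value over 4 muscle markers was 2184, against 1034 to 1670. Fibroblast markers (14 of 14 in the table) summed to 410470 to 576280 in the 9 libraries. Endothelial markers summed to 171 to 291 and epithelial markers to 160 to 528, and no marker was at 0 in every library. In bulk RNA, fewer cells of a type and less RNA per cell cannot be told apart. Depth, read off from the value that a single read is worth in each library, was 6653625 reads for the -1 h library of Cycle 1 and 10489225 to 12820918 reads for the other 8.

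Short stretches in front of 9 genes that were high at 0 h are shown because they hold motifs of factors that the named pathways act on. They were read from RefSeq promoter windows of build GRCm38.p6, which run from 250 bases before to 50 bases after a start site. Capitals mark the motif, searched on both strands. CArG boxes, which bind Srf, were found in front of Egr2 and Zfp36.
Egr2, chr10:67537772-67537831 (plus strand): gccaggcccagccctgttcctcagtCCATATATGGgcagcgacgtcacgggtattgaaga
Zfp36, chr7:28379252-28379311 (minus strand): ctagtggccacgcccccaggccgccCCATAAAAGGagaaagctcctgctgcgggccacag
The cyclic AMP response element TGACGTCA, which binds Creb and Atf factors, was found in front of Btg2, Dusp1 and Ccnl1.
Btg2, chr1:134079289-134079346 (minus strand): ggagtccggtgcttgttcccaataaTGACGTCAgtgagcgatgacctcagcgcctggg
Dusp1, chr17:26508583-26508640 (minus strand): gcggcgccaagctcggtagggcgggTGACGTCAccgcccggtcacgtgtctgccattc
Ccnl1, chr3:65958250-65958292 (minus strand): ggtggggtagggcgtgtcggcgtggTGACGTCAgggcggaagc
The AP-1 site TGAGTCA, bound by Fos and Jun dimers, occurred at 2 places in front of Csrnp1.
Csrnp1, chr9:119983024-119983150 (minus strand): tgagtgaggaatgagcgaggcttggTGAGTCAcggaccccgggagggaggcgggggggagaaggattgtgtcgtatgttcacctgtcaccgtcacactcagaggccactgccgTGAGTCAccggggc
A kappaB site, bound by NF-kB, was found in the windows of 10 of the genes higher at 0 h, among them Fos, Fosb, Egr2, Egr4, Ier3, Nr4a1 and Ccrl2. The match of Nr4a1 begins at base -3 from the start site and runs past it. The sites of Cxcl1, Cxcl2 and Nfkbia are shown because these genes are known NF-kB targets. In the Cxcl1 and Cxcl2 stretches the capitals cover 2 overlapping matches.
Cxcl1, chr5:90891149-90891209 (plus strand): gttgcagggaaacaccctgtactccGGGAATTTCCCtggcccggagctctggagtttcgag
Cxcl2, chr5:90903777-90903837 (plus strand): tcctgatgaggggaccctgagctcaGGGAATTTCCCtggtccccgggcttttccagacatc
Nfkbia, chr12:55492648-55492701 (minus strand): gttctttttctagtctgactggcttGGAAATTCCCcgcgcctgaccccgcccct
Over all 32851 windows of the reference, 1.63% held a CArG box, 1.79% the cyclic AMP response element, 5.2% the AP-1 site and 8.46% a kappaB site. Over the 15610 windows of the genes of the table the shares were 1.35%, 2.79%, 4.18% and 10.7%. The 10 with a kappaB site are genes, some with more than 1 window, so they do not compare with a share of windows. Counted by gene, they are 10 of the 24 with a window, beside 1561 of the 12368 genes of the table with a window. Only 24 of the 36 genes higher at 0 h and 242 of the 336 genes higher after serum had a window, which is under 80%, so a comparison of motif shares between gene sets is void. A match is a description of letters and not a test of binding.

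The genes that differed between -1 h and 0 h included many classic immediate early genes. A fit of hour and Cycle over the 15 libraries from -1 to 3 h, added after the data were seen, called 36 genes higher at 0 h (0.226% of the genes tested) and 1 lower (0.00629%), where a call is a Benjamini-Hochberg adjusted p under 0.05 in limma with a log2 difference above 1 in size. Of the 36 genes, 26 belong to the gene lists used here, among them 5 AP-1 genes (Fos, Fosb, Jun, Junb and Atf3), 7 genes of the Egr, Nr4a and Ier group (Egr1, Egr2, Egr3, Egr4, Nr4a1, Ier2 and Ier3), the phosphatases Dusp1 and Dusp6, the mRNA decay factor Zfp36, the chemokines Cxcl1, Cxcl2 and Ccl2, the NF-kB inhibitors Nfkbia and Nfkbiz, Id1 and Hes1. The lists hold 366 of the 15895 genes of the table and were chosen with earlier results of these data known. Without the 0 h library of Cycle 1 the total of 37 calls was 21, and without that of Cycle 2 it was 22.

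Values are given in the order -1, 0, 1 and 1.5 h for Cycle 1 and -1, 0, 0.5, 1 and 1.5 h for Cycle 2. Fosb (chromosome 7, 19888070 to 19895394, minus strand, build NCBIM37), an AP-1 subunit that pairs with Jun proteins, had values of 56, 17294, 19980 and 5717 in Cycle 1 and 31, 9099, 12497, 13482 and 6772 in Cycle 2. It was 311 times higher at 0 h than at -1 h in Cycle 1 and 289 times in Cycle 2, a log2 difference of 8.19 (SE 0.48, adjusted p = 0.000373), and every early library stayed above the -1 h library of its Cycle. Fos (chromosome 12, 86814840 to 86818223, plus strand) had values of 914, 24883, 5632 and 672 in Cycle 1 and 466, 15149, 12203, 5981 and 1207 in Cycle 2. It was highest at 0 h in both Cycles and fell afterwards, and at 1.5 h of Cycle 1 it was below its -1 h value. For Fos the early libraries lay 2.19 above -1 h (SE 0.40, adjusted p = 0.0113) and fell by 2.70 from 0 h on the log2 scale (SE 0.40, adjusted p = 0.0098), while against both starved hours together the difference was -0.27 and was not called (SE 1.53, adjusted p = 0.917).

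Egr1, a zinc finger factor induced by ternary complex factors and Srf, measured 3404, 28363, 22740 and 11140 in Cycle 1 and 1760, 18343, 21898, 19763 and 11869 in Cycle 2. All 5 early libraries were above -1 h, and the log2 difference from -1 h was 2.76 (SE 0.29, adjusted p = 0.00113). Jun stood at 1102, 9812, 5187 and 2892 in Cycle 1 and 890, 6778, 5413, 4565 and 2711 in Cycle 2. As with Fos, its highest value was the 0 h value in each Cycle, and the early libraries fell by 1.03 from 0 h on the log2 scale (SE 0.11, adjusted p = 0.00327). The nuclear receptor Nr4a1 gave 278, 7157, 12960 and 3468 in Cycle 1 and 336, 4192, 5192, 5451 and 2498 in Cycle 2. Its highest early value was at 1 h in both Cycles, and the early libraries differed from 0 h by -0.12 (SE 0.41, adjusted p = 0.88). Zfp36, whose product binds AU-rich elements and shortens the life of cytokine and immediate early mRNAs, had values of 842, 10157, 13411 and 2974 in Cycle 1 and 559, 6169, 7257, 6713 and 2498 in Cycle 2. Its 0 h values were 12.1 and 11 times those at -1 h in Cycles 1 and 2, and at 1.5 h it stood at 2974 and 2498. In front of Egr2 and Zfp36 the CArG boxes shown above lay 72 and 58 bases before the start site. Egr2 measured 131, 1183, 1857 and 1202 in Cycle 1 and 83, 728, 1230, 1613 and 1119 in Cycle 2, and every library from 0 h on exceeded the -1 h library.

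**Figure D1:**
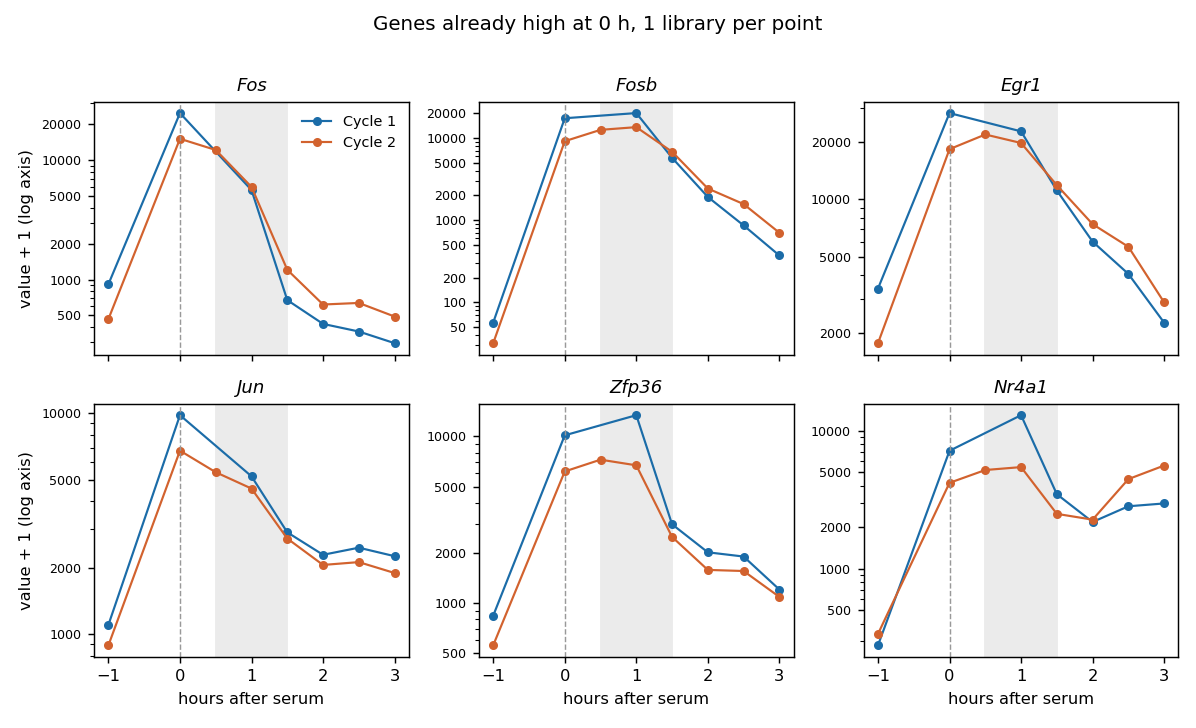
Values plus 1 (log axis) of Fos, Fosb, Egr1, Jun, Zfp36 and Nr4a1 against hours after serum, 1 point per library, Cycle 1 in blue and Cycle 2 in orange, with serum at the dashed line and 0.5 to 1.5 h shaded. The 0 h points sit far above the -1 h points in both Cycles, and Fos and Jun are at their highest there.

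The comparisons of 0 h and of the early libraries with -1 h share the -1 h libraries, so their values are given side by side and no overlap is drawn from them. Some genes kept rising past 0 h, among them Ereg, an EGF receptor ligand, with 44, 440, 2862 and 3916 in Cycle 1 and 141, 1533, 3275, 7610 and 8993 in Cycle 2. Csrnp1, a nuclear protein with the AP-1 sites shown above, had values of 89, 804, 4317 and 2703 in Cycle 1 and 173, 1186, 2587, 3290 and 2532 in Cycle 2, lower at 1.5 h than at 1 h in both Cycles. Both were called against either baseline, Ereg by 5.82 from -1 h and 2.45 from 0 h, and Csrnp1 by 4.58 and 1.61 on the log2 scale. The gene lower at 0 h was Ppp1r3c, a subunit that directs protein phosphatase 1 to glycogen. It had values of 140, 40, 14 and 7.8 in Cycle 1 and 138, 21, 15, 7.67 and 5 in Cycle 2. It was lower at 0 h than at -1 h in both Cycles and lower again in every early library.

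**Figure D2:**
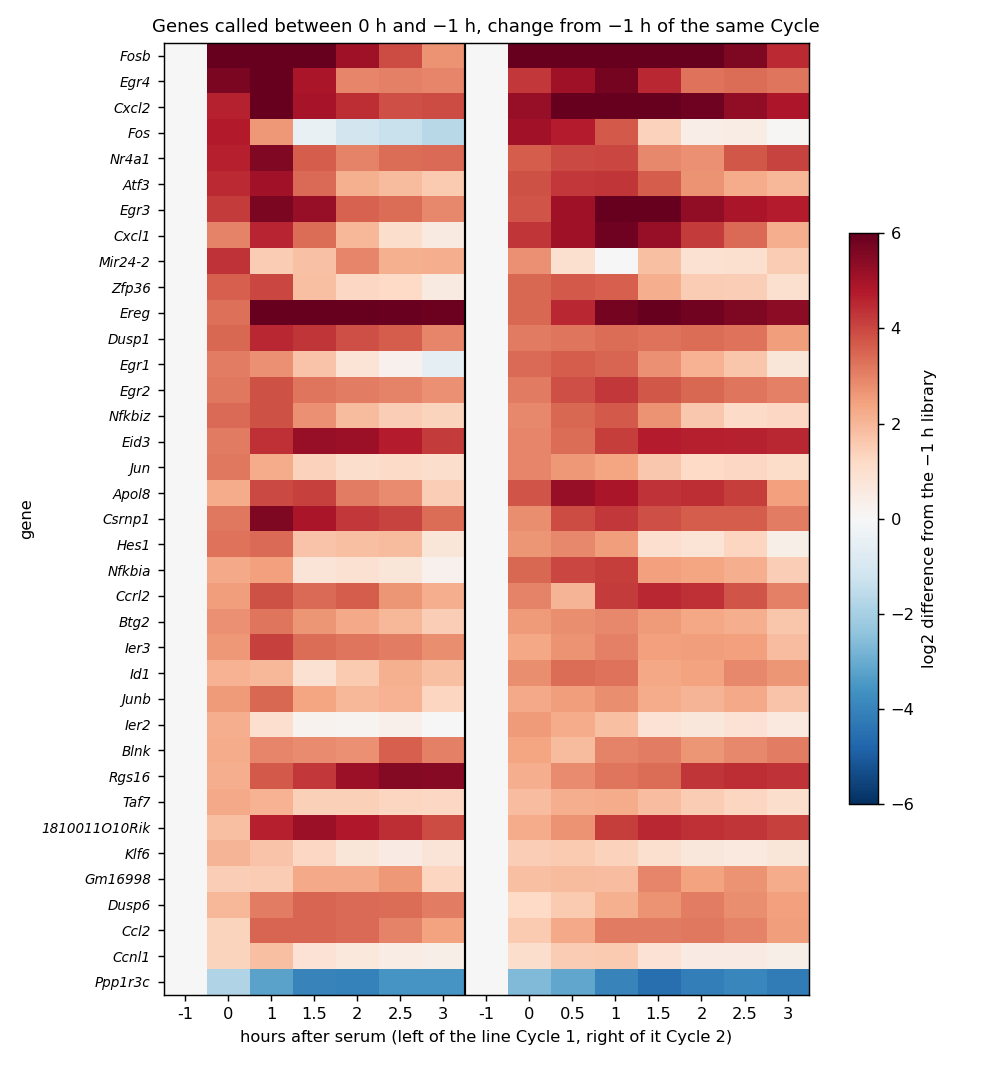
Heat map of the 37 genes called between 0 h and -1 h, 1 row per gene and 1 column per library from -1 to 3 h, coloured by the log2 difference from the -1 h library of the same Cycle. The column at 0 h is red for 36 genes in both Cycles, and several rows, Fos among them, pale by 2 to 3 h.

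With both starved hours together as the baseline, 336 genes were higher within 1.5 h after serum (2.11% of 15895 tested) and 551 lower (3.47%), and 5822 genes had an unadjusted p under 0.05. In this fit the hours of a state stand as replicates, so that their spread holds the change over those hours, and the value tested is the mean of the 2 within-Cycle differences in log2(value + 1). All early libraries lay beyond both starved libraries of their Cycle for 278 of the genes called higher and for 448 of those called lower. Among all genes, 5.37% had every early library above and 20.5% every early library below. The median log2 difference over all genes was -0.15, and rescaling by median of ratios brought it to 0.009 and the calls to 362 higher and 329 lower, against a share of 37.9% higher in the values as deposited. From -1 h alone the fit of hour and Cycle called 463 higher (2.91%) and 672 lower (4.23%), and from 0 h alone 267 higher (1.68%) and 303 lower (1.91%). Both baselines gave the same call for 225 genes higher and 265 lower.

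These counts depended on single libraries. Without the -1 h library of Cycle 1 no gene was called in limma, with 4443 at an unadjusted p under 0.05, and without that of Cycle 2 the counts were 1 higher and 0 lower, with 4108. Without the 0 h library of Cycle 1 they were 148 and 200, and without that of Cycle 2 101 and 169. Leaving out the 1.5 h library of Cycle 1 gave 56 and 141, the 1 h library of Cycle 2 52 and 109, and the 1.5 h library of Cycle 2 219 and 337. Without the 0.5 h library of Cycle 2, which stood apart in blood and muscle markers, the counts were 447 and 720. Using edgeR on recovered whole reads, 432 genes were higher and 392 lower, 293 and 378 of them shared with limma. Fits that ignored the Cycle, the replicate block of this design, called 81 and 143.

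**Figure D3:**
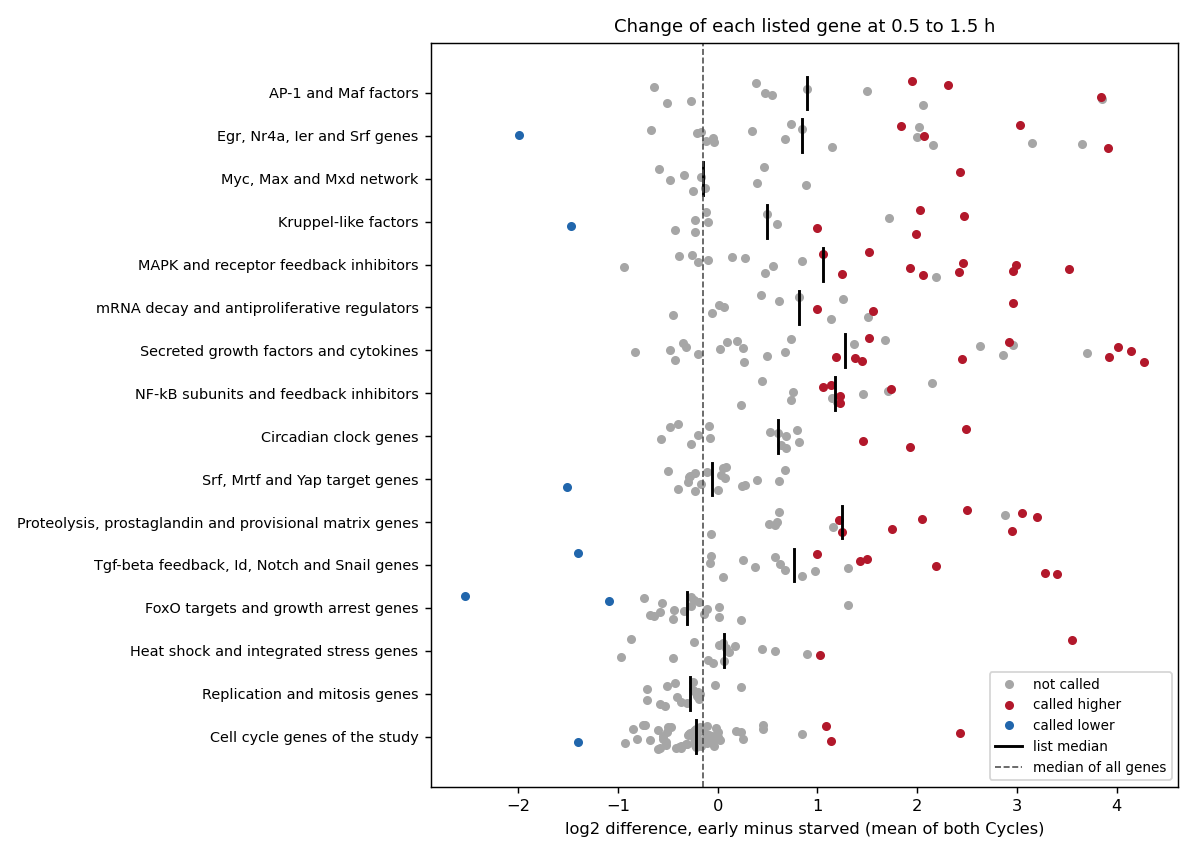
Log2 difference of early minus starved libraries for each gene of the lists, 1 point per gene, red where called higher, blue where called lower and grey where not called, with the list median in black and the median of all genes (-0.15) dashed. Feedback inhibitors, secreted factors, NF-kB genes and proteolysis genes have medians above 1, and replication genes sit near the median of all genes.

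Among AP-1 and Maf genes, 3 of 13 were called higher and none lower, with a list median of 0.90 against -0.15 over all genes. Over all genes 2.11% were higher and 3.47% lower, shares that stand beside every list count below. From -1 h 9 of the 13 were higher. Fosl1, a Fos-related subunit that follows Fos and Fosb in AP-1 dimers, had 23, 82, 1538 and 2389 in Cycle 1 and 142, 224, 447, 946 and 1444 in Cycle 2. All early values were above both starved values of their Cycle, with a log2 difference of 3.84 (SE 0.49, adjusted p = 0.015). Of the small Maf factors, which lack an activation domain of their own, Maff and Mafk rose and Mafg was not called (0.39, SE 0.15, adjusted p = 0.114). Maff had values of 89, 431, 2078 and 2008 in Cycle 1 and 326, 527, 756, 1068 and 1189 in Cycle 2, a log2 difference of 2.31 (SE 0.46, adjusted p = 0.0261), and Mafk rose by 1.95 (SE 0.37, adjusted p = 0.0248). From 0 h, Fosl1 and Mafk were higher, Fos and Jun lower, and Maff was not called (1.50, SE 0.49, adjusted p = 0.103).

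In the group of Egr, Nr4a, Ier and Srf genes, 4 of 21 were higher and 1 lower (list median 0.85), from -1 h 13 were higher and 1 lower, and from 0 h 3 were higher and 2 lower. Arc, an immediate early gene best known from neurons, had values of 50, 343, 2593 and 5574 in Cycle 1 and 15, 59, 122, 229 and 519 in Cycle 2. It rose by 3.91 (SE 0.75, adjusted p = 0.0251) and was higher at 1.5 h than at 1 h in each Cycle. Nr4a3, an orphan nuclear receptor, rose by 3.03 (SE 0.54, adjusted p = 0.0214), and Ier5 by 2.07 (SE 0.33, adjusted p = 0.0192). Ier5l moved the other way, with 203, 126, 50 and 27 in Cycle 1 and 237, 174, 107, 36 and 40 in Cycle 2. Its fall of -1.99 (SE 0.39, adjusted p = 0.0255) was followed by a return, to 238 at 3 h of Cycle 1 and 204 at 3 h of Cycle 2. Srf itself was called from -1 h only, by 1.09 (SE 0.25, adjusted p = 0.0277).

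Myc, the growth regulator whose protein dimerises with Max, was the only called member of 10 genes of its network in the table (list median -0.15). Its values were 404, 1132, 5982 and 5411 in Cycle 1 and 678, 1337, 2432, 3663 and 3946 in Cycle 2. The log2 difference was 2.43 (SE 0.36, adjusted p = 0.0175), and it held from -1 h (3.01) and from 0 h (1.78). Mnt, a repressor that also pairs with Max, differed by 0.89, within the fold limit of a call.

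Of the 13 Kruppel-like factors 4 were higher and 1 lower, with a median of 0.50, and 6 and 1 from -1 h and 3 and 0 from 0 h. Klf5 measured 36, 58, 265 and 703 in Cycle 1 and 50, 46, 66, 136 and 460 in Cycle 2, a difference of 2.47 (SE 0.60, adjusted p = 0.0388). In Cycle 2 its 0.5 h value was near the starved values, and the largest step was from 1 to 1.5 h. Klf9 rose by 2.03 (SE 0.36, adjusted p = 0.0215) and Klf10, a gene induced by Tgf-beta, by 1.99 (SE 0.39, adjusted p = 0.0253). Klf15, a factor of fasting metabolism, went from 36 and 44 in starved Cycle 1 to 16 and 6.24, and from 49 and 35 to 34, 21 and 9.99 in Cycle 2 (-1.47, SE 0.40, adjusted p = 0.0492). With median of ratios rescaling no Kruppel-like factor was called lower.

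Among inhibitors of MAPK and receptor signalling 10 of 21 were higher and none lower (median 1.06), with 13 higher and 1 lower from -1 h and 9 higher from 0 h. Errfi1, which binds and blocks the EGF receptor kinase, had values of 455, 1409, 10983 and 16694 in Cycle 1 and 1274, 2522, 3683, 7423 and 10824 in Cycle 2. It rose in every early library, by 2.99 on the log2 scale (SE 0.47, adjusted p = 0.0189). The phosphatase Dusp5, specific for nuclear Erk, had 20, 131, 705 and 1274 in Cycle 1 and 32, 71, 175, 345 and 736 in Cycle 2 and a difference of 3.52 (SE 0.68, adjusted p = 0.0249). Dusp4 followed a later course, with 78, 98, 743 and 3390 in Cycle 1 and 137, 183, 198, 431 and 1770 in Cycle 2. At 0.5 h it was close to its 0 h value in Cycle 2, and its difference was 2.96 (SE 0.72, adjusted p = 0.0395). Dusp10, which acts on p38 and Jnk, rose by 2.06 (SE 0.37, adjusted p = 0.0223), Spry4 by 1.52 (SE 0.24, adjusted p = 0.0189) and Spry2 by 1.06 (SE 0.18, adjusted p = 0.021). Spry1, a close relative, differed by -0.26 (SE 0.21, adjusted p = 0.416) and was not called. Dusp1, with the cyclic AMP response element shown above, had values of 365, 4029, 8502 and 7148 in Cycle 1 and 439, 3802, 4008, 4500 and 4144 in Cycle 2. It was high at 0 h in both Cycles, and its difference from 0 h was not called, 0.50 (SE 0.23, adjusted p = 0.206).

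Among regulators of mRNA decay and of proliferation, 3 of 13 were higher and none lower (median 0.82), 6 were higher from -1 h and 1 from 0 h. Zc3h12a, an endoribonuclease that degrades inflammatory mRNAs, had values of 135, 167, 1320 and 1391 in Cycle 1 and 103, 279, 621, 1418 and 1710 in Cycle 2. All early values exceeded the starved ones, with a difference of 2.96 (SE 0.40, adjusted p = 0.015). Gadd45b, a stress and growth arrest gene, rose by 1.56 (SE 0.41, adjusted p = 0.0468) but was not called from 0 h (0.87, SE 0.28, adjusted p = 0.1). Btg2, an antiproliferative factor that recruits deadenylases, had values of 604, 4067, 5610 and 3739 in Cycle 1 and 654, 3846, 4457, 4900 and 3850 in Cycle 2, and was not called from 0 h (0.17, SE 0.13, adjusted p = 0.445).

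The 4 largest called rises of any listed gene, those of Areg, Ereg, Hbegf and Csf2, were of secreted factors. Of the 30 in the list 10 were higher and none lower (median 1.28), 15 were higher from -1 h, and from 0 h 10 were higher and 1 lower. Hbegf (chromosome 18, 36664583 to 36675459, minus strand), a membrane-anchored EGF receptor ligand, had 162, 400, 7144 and 12238 in Cycle 1 and 280, 738, 1750, 3416 and 5758 in Cycle 2. Its difference was 4.01 (SE 0.50, adjusted p = 0.015), and each early library was above both starved ones. Areg, another EGF receptor ligand, rose from 3.01 and 7.29 to 122 and 539 in Cycle 1 and from 1.91 and 6.59 to 12, 40 and 118 in Cycle 2, by 4.28 (SE 0.78, adjusted p = 0.0225). Csf2, the granulocyte and macrophage growth factor, had values of 0, 0.912, 15 and 49 in Cycle 1 and 0.954, 2.47, 13, 38 and 44 in Cycle 2. It rose by 3.92 (SE 0.52, adjusted p = 0.015), a size that depends on the 1 added, since no starved library exceeded 2.47. Lif, a cytokine of the interleukin 6 family, measured 78, 236, 1120 and 1107 in Cycle 1 and 185, 805, 1255, 3608 and 4522 in Cycle 2 and rose by 2.92 (SE 0.61, adjusted p = 0.0291). Vegfa rose by 1.52, Csf1 by 1.19, Bmp2 by 1.45 and the chemokine Ccl2 by 2.45, each with an adjusted p of at most 0.0407. Inhba, a subunit of activin, was not called (1.37, SE 0.72, adjusted p = 0.217) and among these hours stood highest at 1.5 h, at 1608 in Cycle 1 and 1642 in Cycle 2.

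Of 14 NF-kB subunits and inhibitors, 5 were higher and none lower (median 1.17), 10 from -1 h and 4 from 0 h. Nfkbia, the inhibitor that holds NF-kB in the cytoplasm, had values of 555, 2700, 3041 and 947 in Cycle 1 and 323, 3541, 5253, 5745 and 1792 in Cycle 2. It was high from 0 h to 1 h and lower at 1.5 h in both Cycles, and against both starved hours it differed by 1.15 (SE 0.89, adjusted p = 0.393). Rel, the c-Rel subunit, measured 27, 45, 140 and 81 in Cycle 1 and 27, 42, 78, 168 and 156 in Cycle 2 and rose by 1.74 (SE 0.32, adjusted p = 0.0237). Nfkbib, another inhibitor of the same family, rose by 1.23 (SE 0.19, adjusted p = 0.0184), Birc3 by 1.23 (SE 0.24, adjusted p = 0.0259) and Relb by 1.14 (SE 0.20, adjusted p = 0.0215). Tnfaip3, a deubiquitinase that dampens NF-kB signalling, was higher from -1 h (3.60, SE 0.55, adjusted p = 0.00569) and was not called against both starved hours (2.15, SE 0.89, adjusted p = 0.133). Its values were 200, 836, 1997 and 436 in Cycle 1 and 110, 1288, 3248, 5341 and 1999 in Cycle 2.

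Serum also resets the circadian clock of cultured fibroblasts, and 3 of 17 clock genes in the table were higher and none lower (median 0.61), with 4 from -1 h and, from 0 h, Per2 and Cry2. Of all genes 2.11% were higher and 3.47% lower. Per2, a repressor of the Clock and Arntl dimer, had values of 71, 81, 652 and 461 in Cycle 1 and 44, 51, 119, 246 and 321 in Cycle 2. The -1 and 0 h values were alike and every early value was above them, with a difference of 2.49 (SE 0.30, adjusted p = 0.015). Cry2, its partner in repression, rose by 1.46 (SE 0.31, adjusted p = 0.0294) and Bhlhe40 by 1.93 (SE 0.35, adjusted p = 0.0219). Per2 stood at 86 at 3 h of Cycle 1 and 48 at 3 h of Cycle 2. Arntl was not called in the early libraries (0.69, SE 0.39, adjusted p = 0.241) and was higher at 2 to 3 h than in them, by 1.54 (SE 0.28, adjusted p = 0.00159).

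Of 20 targets of Srf with Mrtf and of Yap, none was called higher by limma (2 at an unadjusted p under 0.05) and 1 was called lower, with a median of -0.05, and over all genes 2.11% were higher and 3.47% lower. Cyr61, a matrix protein induced through both, had values of 4302, 22239, 19462 and 10394 in Cycle 1 and 8034, 17739, 18966, 15393 and 9820 in Cycle 2. Among these hours its highest value was at 0 h in Cycle 1 and at 0.5 h in Cycle 2. Against -1 h it was higher by 1.26 (SE 0.24, adjusted p = 0.0132). The gene called lower was Ajuba, a LIM protein of cell junctions, with 654, 535, 242 and 115 in Cycle 1 and 600, 581, 456, 279 and 130 in Cycle 2 and a difference of -1.51 (SE 0.40, adjusted p = 0.0452), which rescaling by median of ratios left uncalled. Actb, which encodes cytoplasmic actin, differed by 0.00 (SE 0.20, adjusted p = 0.999).

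Genes of pericellular proteolysis, prostaglandin synthesis and the provisional matrix gave 8 of 15 higher and none lower (median 1.25), with 9 higher from -1 h and 5 from 0 h, which do not include Ptgs2 and Plaur. Ptgs2, the inducible cyclooxygenase, had values of 168, 2017, 8503 and 12987 in Cycle 1 and 1191, 4274, 6820, 11397 and 15139 in Cycle 2. Its 0 h values were above its -1 h values, a difference that was not called (2.71, SE 0.52, adjusted p = 0.184), and that of the early libraries was 3.20 (SE 0.78, adjusted p = 0.0395). Tnfaip6, a hyaluronan-binding protein, rose by 2.50 (SE 0.31, adjusted p = 0.015) and the hyaluronan synthase Has2 by 1.75 (SE 0.39, adjusted p = 0.0325). Plaur, the urokinase receptor, rose by 2.05 (SE 0.36, adjusted p = 0.0213).

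In the list of Tgf-beta feedback, Id, Notch and Snail genes 6 of 18 were higher and 1 lower (median 0.76), with 8 higher and 1 lower from -1 h and 5 higher from 0 h. Heyl, a repressor downstream of Notch, had values of 87, 108, 975 and 1281 in Cycle 1 and 42, 42, 156, 413 and 688 in Cycle 2. It was flat between -1 and 0 h and rose by 3.28 (SE 0.41, adjusted p = 0.015). Hey1 rose by 3.40 (SE 0.46, adjusted p = 0.0157) and the Notch ligand Jag1 by 2.19 (SE 0.54, adjusted p = 0.04). Nrarp, a feedback inhibitor of Notch outside the list, rose by 3.69 (SE 0.80, adjusted p = 0.0317) and is among the 15 largest rises. Snai2, a zinc finger repressor of mesenchymal cells, had values of 639, 602, 247 and 119 in Cycle 1 and 502, 438, 336, 234 and 181 in Cycle 2 and moved by -1.40 (SE 0.26, adjusted p = 0.0246), while Snai1 was just over the fold limit at 1.00 (SE 0.20, adjusted p = 0.0261).

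Over all genes, the 15 largest rises with every early library apart began with Nfatc2 (chromosome 2, 168301910 to 168427157, minus strand), a calcium-regulated transcription factor. Its values were 5.26, 5.01, 403 and 583 in Cycle 1 and 4.77, 5.56, 9.23, 147 and 313 in Cycle 2. Starved and 0.5 h libraries were at most 9.23 and the later ones at least 147, with a difference of 4.99 (SE 0.96, adjusted p = 0.0251). Rcan1, an inhibitor of calcineurin named here after its values were seen, rose by 3.25 (SE 0.51, adjusted p = 0.0187). Cyp1a1, the cytochrome P450 that is the best known target of the aryl hydrocarbon receptor, was at 0 in all 4 starved libraries and read 17 and 52 in Cycle 1 and 3.69, 26 and 109 in Cycle 2. Set against a floor of 3 reads per library, its early mean was at least 7.57-fold higher in Cycle 1 and at least 16.1-fold higher in Cycle 2. Cyp1b1 and Tiparp, further targets of that receptor chosen after their values were seen, rose by 1.14 (SE 0.26, adjusted p = 0.0343) and 2.71 (SE 0.38, adjusted p = 0.0158). Bdkrb1, the inducible bradykinin receptor, had values of 1.5, 26, 345 and 451 in Cycle 1 and 19, 138, 266, 742 and 946 in Cycle 2 and rose by 4.51 (SE 0.89, adjusted p = 0.0264). Csf3, a granulocyte growth factor, rose by 4.11 (SE 0.62, adjusted p = 0.0176), Tac1, the precursor of substance P, by 3.95 (SE 0.73, adjusted p = 0.0236), the repressor Prdm1 by 3.61 (SE 0.65, adjusted p = 0.0222) and the water and glycerol channel Aqp3 by 3.95 (SE 1.02, adjusted p = 0.0444). From 0 h Aqp3 was not called, and it had at most 8.21 in any starved library and was 534 at 1.5 h of Cycle 1 and 37 at 1.5 h of Cycle 2. The others of the 15 were Areg, Ereg, Hbegf, Csf2, Arc, Fosl1 and Nrarp, described above, and 1600029D21Rik.

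Trib1, a pseudokinase that sends proteins to degradation, was the largest of 2 rises among 17 heat shock and integrated stress genes (median 0.06, none lower, against 2.11% higher and 3.47% lower of all genes). It had values of 93, 882, 6846 and 6138 in Cycle 1 and 155, 1177, 2097, 2852 and 3025 in Cycle 2 and rose by 3.55 (SE 0.81, adjusted p = 0.034). Ddit4, an inhibitor of mTORC1, rose by 1.03 (SE 0.19, adjusted p = 0.0238). Hspa1a, an inducible heat shock protein, was called from -1 h only (1.24, SE 0.30, adjusted p = 0.0292).

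Of 20 FoxO targets and growth arrest genes 2 were lower and none higher (median -0.31), and after rescaling 1 was lower. Over all genes 3.47% were lower and 2.11% higher before rescaling. Txnip (chromosome 3, 96361880 to 96365806, plus strand), a regulator of glucose uptake and redox state, had values of 6628, 4945, 800 and 293 in Cycle 1 and 2954, 2370, 1572, 854 and 598 in Cycle 2. It fell in every early library, by 2.53 on the log2 scale (SE 0.39, adjusted p = 0.0182). Gm15441, an antisense gene from 96359688 to 96370724 on the minus strand, spans Txnip and gave nearly the same difference, -2.54. Since the authors counted both strands together, the reads of this pair cannot be told apart. Pik3ip1, an inhibitor of PI3 kinase, fell by 1.09 (SE 0.27, adjusted p = 0.0407) and was not called from 0 h.

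Genes named Zfp, most of them encoding zinc finger proteins, made up a large share of the falls. The table held 337 such genes, and 138 of them were lower (40.9%, against 3.47% of all genes) and 2 higher, and their median log2 difference was -0.91 against -0.15. This group was chosen after its values were seen, and no test was run on it. From -1 h 158 were lower and from 0 h 101, after rescaling 105 (median -0.75) and with edgeR 115. Zfp94 (chromosome 7, 25086723 to 25101685, minus strand), the largest fall with every early library apart, had values of 59, 47, 2.79 and 2.34 in Cycle 1 and 34, 26, 17, 5.96 and 1.67 in Cycle 2. It dropped by 3.03 on the log2 scale (SE 0.51, adjusted p = 0.0203). Zfp128 measured 60, 47, 3.72 and 2.34 in Cycle 1 and 51, 31, 11, 8.52 and 5 in Cycle 2 and fell by 2.99 (SE 0.26, adjusted p = 0.0137). Zfp763 went from 126 and 78 to 12 and 8.58 in Cycle 1 and from 102 and 60 to 30, 14 and 18 in Cycle 2. In all 3 the lowest early value was 1 or 1.5 h, and 9 of the 15 largest falls carried the name. The other 6 were Ppp1r3c, Txnip, Gm15441, A430033K04Rik, Gm5141 and Gm5595. Of the genes named Zfp with a place in the annotation, 24.5% lay on chromosome 7, which held 15.9% of all genes called lower and 7.61% of all genes. Near-identical zinc finger genes can share 50-base reads, so values of single members are uncertain. Most of these genes had low values, and the size of their fall depends on the 1 added to each value. At 2 to 3 h, against the same early libraries, 26 of the 138 were higher, as were 52 of all 551 genes called lower and 3.84% of all genes, and 14 of the 337 were lower.

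**Figure D4:**
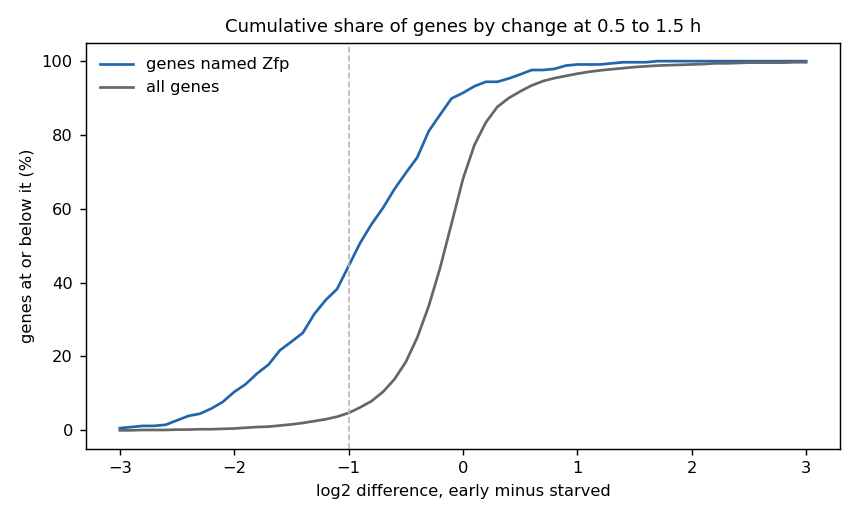
Cumulative share of genes (percent) at or below each log2 difference of early minus starved libraries, for the 337 genes named Zfp and for all 15895 genes. The curve of the Zfp genes lies to the left, with a median of -0.91 against -0.15.

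Transcripts of skeletal muscle were also among the falls. Among 4 muscle markers 3 were lower (Myod1, Myog and Ckm), though in Cycle 2 alone Ckm differed by only 0.038 on the log2 scale. The summed value of the 4 went from 721 and 635 to 390 and 315 in Cycle 1. In Cycle 2 it went from 1661 and 1670 to 2184, 1153 and 1034. Myog, a factor of muscle differentiation, had values of 111, 99, 0.929 and 4.68 in Cycle 1 and 30, 15, 42, 11 and 4.16 in Cycle 2. In Cycle 1 both early values were near 0, whereas the 0.5 h library of Cycle 2 was above its starved libraries. The difference was -2.83 (SE 0.66, adjusted p = 0.0362), and it was not called from either single baseline. From -1 h Myod1 alone of the 4 markers was called lower and from 0 h none in limma (2 at an unadjusted p under 0.05), and none had every early library below both starved libraries of its Cycle. Myh3, the embryonic myosin heavy chain, named after its values were seen, had 510, 437, 12 and 30 in Cycle 1 and 101, 87, 152, 20 and 19 in Cycle 2 and -2.89 (SE 0.66, adjusted p = 0.0348). Other muscle genes were also looked at and are not given here. The part that the number of muscle cells in a library had in these values was not tested. Among 5 neural markers Tubb3 was lower (-1.08, SE 0.23, adjusted p = 0.0297), but not after rescaling, and the list summed to 259 to 354 in the early libraries and 407 to 511 in the starved ones. No fibroblast, epithelial, endothelial or blood marker was called by limma or edgeR, and at an unadjusted p under 0.05 in limma 4 fibroblast and 4 epithelial markers of 14 and 7 differed.

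None of 18 replication and mitosis genes was called in either direction by limma or by edgeR (median -0.28). By limma 2.11% of all genes were higher and 3.47% lower, and at those shares a list this short can hold no call. The count is therefore no result about these genes. In limma 1 of the 18 was higher and 8 were lower at an unadjusted p under 0.05. Of the 63 cell cycle genes that the study chose on these samples, which is no independent evidence of their direction, 3 were higher and 1 lower (median -0.22), which is 4.76% and 1.59% against 2.11% and 3.47% of all genes. At an unadjusted p under 0.05 in limma 7 of the 63 were higher and 27 lower, and 21 had every early library below both starved libraries of their Cycle. Besides Myc the genes called higher were Cdkn1a, the p21 inhibitor of cyclin-dependent kinases, with 1552, 1660, 4297 and 5815 in Cycle 1 and 1738, 1844, 2202, 2659 and 3796 in Cycle 2 (1.14, SE 0.18, adjusted p = 0.019), and Tgfb1 (1.09, SE 0.28, adjusted p = 0.0426). Cdc7, the kinase that fires replication origins, had values of 218, 206, 68 and 43 in Cycle 1 and 311, 334, 271, 177 and 120 in Cycle 2 and fell by 1.40 on the log2 scale (SE 0.26, adjusted p = 0.0227). None of 11 reference genes was called by limma or edgeR (2 higher and 4 lower at an unadjusted p under 0.05 in limma), with a median of 0.09 in the main values and 0.25 after rescaling.

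The response built up over the early hours. At 0.5 h of Cycle 2, 93 of the 336 genes called higher were more than 1 log2 unit above their starved mean, at 1 h 217 and at 1.5 h 275. In Cycle 1 the numbers were 321 at 1 h and 323 at 1.5 h. Of the 551 genes called lower, 100, 287 and 412 were more than 1 unit below at 0.5, 1 and 1.5 h of Cycle 2, and 502 and 536 at 1 and 1.5 h of Cycle 1. These values chose the genes and are given as a description. Between 1 h and 1.5 h limma called 6 genes higher (0.0377%) and none lower, with 2794 at an unadjusted p under 0.05, while edgeR on whole reads called 113 higher and 17 lower. Without either 1 h library, the 1.5 h library of Cycle 1 or any starved library, limma called none, with 1257 to 2829 at an unadjusted p under 0.05. Of the 6 only Ahrr, the repressor of the aryl hydrocarbon receptor, reached a mean of 10. It had values of 35, 36, 46 and 137 in Cycle 1 and 26, 30, 20, 33 and 110 in Cycle 2 and stood higher at 1.5 h than at 1 h in both Cycles, a log2 difference of 1.63 (SE 0.12, adjusted p = 0.0385).

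**Figure D5:**
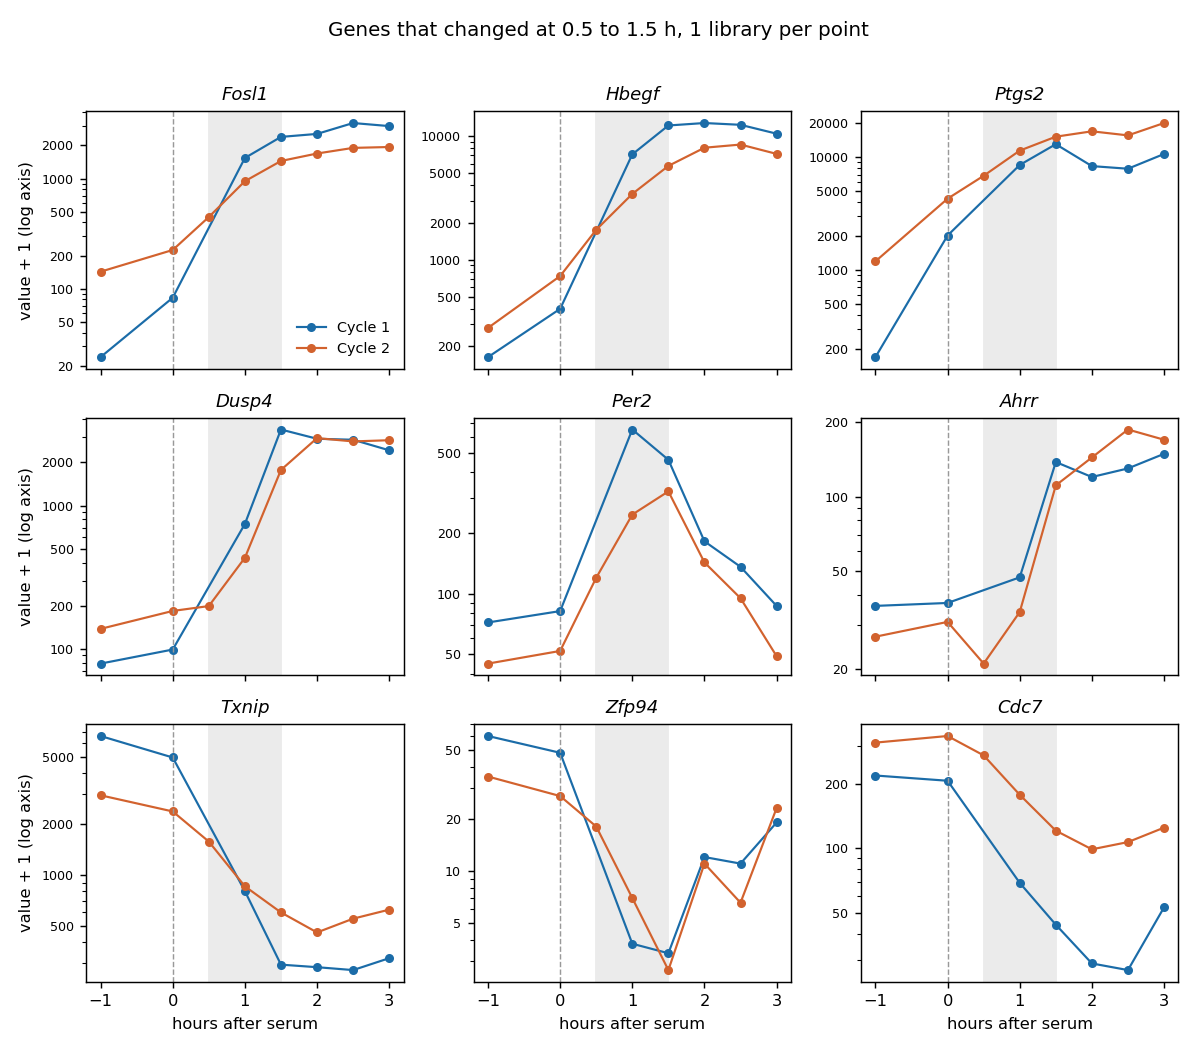
Values plus 1 (log axis) of Fosl1, Hbegf, Ptgs2, Dusp4, Per2, Ahrr, Txnip, Zfp94 and Cdc7 against hours after serum, 1 point per library, Cycle 1 in blue and Cycle 2 in orange, with 0.5 to 1.5 h shaded. Ptgs2 stays above its starved values to 3 h, Per2 has its highest value at 1 or 1.5 h, and Txnip, Zfp94 and Cdc7 fall within the shaded hours.

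Of the 336 genes called higher, 147 had their highest mean of the Cycles by 1.5 h, 55 of them at 1 h and 92 at 1.5 h. None had it at 0 h, but 0 h is part of the baseline that chose these genes, so this absence is no result. The early values also chose the genes, and the hours of the highest value are given as a description. In Cycle 1 alone 170 were highest by 1.5 h and in Cycle 2 alone 119. Set against the early libraries, the libraries at 2 to 3 h had 611 genes higher (3.84%) and 1057 lower (6.65%), or 389 and 704 without the 1 h library of Cycle 1. These libraries share the early ones with the comparison above. Of the 336 genes 70 rose further, 27 fell and 239 were not called. Of the 551 genes lower in the early libraries 63 fell further, 52 rose and 436 were not called. The largest later rises included Serpinb2, an inhibitor of urokinase, by 3.35 (SE 0.66, adjusted p = 0.00242). It had values of 14, 4.56, 51 and 238 in Cycle 1 and 22, 17, 22, 91 and 352 in Cycle 2 up to 1.5 h, and 457, 668 and 1122 in Cycle 1 and 1037, 1410 and 2298 in Cycle 2 at 2, 2.5 and 3 h. Neu2, a sialidase, had at most 2.5 in any starved or early library and 16 to 47 in the 6 libraries at 2 to 3 h (4.11, SE 0.48, adjusted p = 0.000301). Aqp3 rose by a further 3.74, Pkp1 by 3.56 and Fibcd1 by 3.35. Largest among the later falls was Irf1, an interferon regulatory factor, with 374, 740, 1228 and 287 in Cycle 1 and 312, 742, 1103, 1442 and 609 in Cycle 2 up to 1.5 h, and 99, 75 and 83 in Cycle 1 and 144, 118 and 123 in Cycle 2 at 2, 2.5 and 3 h. It dropped by 2.87 (SE 0.39, adjusted p = 0.000492), and with it Rab3il1 by 2.64, Nap1l3 by 2.59, Zfhx4 by 2.51 and Cxcl1 by 2.44 on the log2 scale.

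Changes were larger in Cycle 1. At 1 and 1.5 h, hours that both Cycles have, 283 of the 336 genes called higher lay further above their starved mean in Cycle 1, with a median log2 difference of 2.14 against 1.39, and 510 of the 551 called lower lay further below, with -1.91 against -1.16. Over all genes, 11139 of 15895 had the larger difference in size in Cycle 1, and the medians were -0.20 and -0.11. The same libraries chose the called genes, so their counts are a description. The -1 h library of Cycle 1 held 6653625 reads, against 10489225 to 12820918 in the other starved and early libraries. The part that depth had in these sizes was not tested. No single gene was called for a difference between the Cycles in limma, with 1113 at an unadjusted p under 0.05, nor in edgeR, with 998, and limma with trend and robust options called 12. Hbegf is an example, with log2 differences at 1 and 1.5 h of 5.19 in Cycle 1 and 3.28 in Cycle 2, and Txnip another, with -3.56 and -1.89.

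The genes of each set also differed in build. In the GENCODE annotation of build NCBIM37, genes higher at 0 h had a median span of 3.38 kb and 3 exons (35 of 36 matched), those called higher in the early libraries 12.8 kb and 5 exons (314 of 336) and those called lower 13.4 kb and 4 exons (498 of 551). All matched genes of the table, 14721 of 15895, had a median of 22.5 kb and 8 exons. These medians are a description with no test.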

How the data were processed

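Polyadenylated RNA was sequenced as 50-base single-end reads, 12 libraries per lane. The authors demultiplexed with CASAVA, aligned to mm9 with STAR, used HOMER to count exon reads of both strands and to bring all libraries to an equal total, and the deposited values are this normalized signal (versions are not given in the sources used here). Of 96 columns 1 matched no library and was not used, and 15 entered the analysis.

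From the signal, log2(value + 1) was fitted with limma 3.58.1 in R 4.3.3 as 4 cell means of Cycle and state, without trend or robust options. A call needs a Benjamini-Hochberg adjusted p under 0.05 over all 15895 genes and a log2 difference above 1 in size. All adjusted p-values are from limma unless edgeR 4.0.16 is named, which was run on whole reads recovered from the values (95.0% to 96.1% of low values were whole within 0.1 of a read). Intervals and floors of 3 reads cover counting error only. The limma fits of the main comparisons, of 0 h against -1 h and of either single baseline were run on simulated data. So was edgeR for early minus starved, and the other fits were not. Cycle is the replicate block: deviations of libraries from their group means correlated by 0.20 to 0.55 within a Cycle (37 pairs) and by -0.59 to -0.10 between Cycles.

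The comparisons, gene lists and members were chosen with earlier results of these data known. Named genes are the up to 4 called genes of each list with the largest change, those called at 0 h, members that differed in direction or hour, the 15 largest rises and falls with every early library apart and a mean of at least 10, and the 5 largest between hours; 1 gene that the rule names is not reported here. Fits with a single baseline hour or Cycle were added after seeing the data. Alternatives were pseudocounts, filters on low values, rescaling, baselines, limma options, edgeR and leaving out each library. Coordinates are of GENCODE for NCBIM37 (mm9), and promoter stretches are of RefSeq for GRCm38.p6. Figures used Python 3.11.15 and matplotlib 3.10.9.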

Additional observations from a re-analysis of the deposited data

Results flagged for a closer look

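Groups of 4 to 6 libraries were searched for 1 library far from the others, for named genes, summed markers and the median over all genes. The measure was the gap between a library and its nearest neighbour as a share of the group's range, and 8 of 339 groups were flagged. Chance gives about 1 in 20 only where libraries are interchangeable. These groups mix Cycles and hours, so that rate does not apply to them. In 4 of the 8 the library apart was the 0.5 h library of Cycle 2, the earliest of the early hours. Among the early libraries this was the lowest value for Klf9, 1199 against 1797 to 1988 (share 0.8), for Zc3h12a, 621 against 1320 to 1710 (0.744), and for Nfkbib, 224 against 369 to 418 (0.799). For Zfp738 it was the highest, 28.6 against 9.29 to 11.7 (0.801). Among the starved libraries 1600029D21Rik was at 0 at -1 h of Cycle 2 and at 1.5 to 1.82 in the others (0.884). At 2 to 3 h, Dusp4 was lowest at 3 h of Cycle 1 with 2428 against 2800 to 2952 (0.729), Csf2 was lowest at 3 h of Cycle 2 with 57.4 against 89 to 109 (0.679), and Gm5595 was highest at 3 h of Cycle 2 with 24.1 against 8.31 to 12.2 (0.645).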

How the results depend on the processing

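No paired fit beyond the Cycle was possible, and Cycle is the replicate block throughout. Without the replicate block 81 genes were higher and 143 lower in the early libraries, 2 were called between 1.5 h and 1 h, and 18 between 0 h and -1 h, so the pairing by Cycle moved these counts. Against 336 higher and 551 lower, a minimum mean of 100 gave 221 and 140, the adjusted p alone 639 and 2094, the -1 h libraries alone 57 and 22, the 0 h libraries alone 0 and 0 (2770 genes at an unadjusted p under 0.05), Cycle 1 alone 0 and 0 (3921) and Cycle 2 alone 0 and 0 (1748). The count lower was 348 with a pseudocount of 10, 329 after rescaling and 303 from 0 h in the additive fit. Leaving out each library gave 0 to 447 higher and 0 to 809 lower. Between 1.5 h and 1 h, against 6, the count was 15 with a pseudocount of 10, 3 with a minimum mean of 10, 31 with one of 100, 103 with trend and robust options, 130 with edgeR, 0 in the additive fit and 0 to 13 without each library. Between the Cycles 12 were called with trend and robust options, against 0. At 2 to 3 h, against 1668, the count was 820 with a pseudocount of 10, 656 with a minimum mean of 100, 7105 by adjusted p alone, 869 in Cycle 1 alone, 1057 in Cycle 2 alone and 1093 to 2184 without each library. Between 0 h and -1 h, against 37, edgeR called 56, and without each starved library 21 to 50 were called.

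Of 75 named genes called in the early libraries, 72 kept their call in the additive fit from -1 h, 56 in that from 0 h, 73 with edgeR, 70 with trend and robust options and 69 after rescaling. With the -1 h libraries alone 16 kept it and with the 0 h libraries alone 0, without the replicate block 32, and in either Cycle alone 0. Without the -1 h library of Cycle 1 or of Cycle 2 0 kept it, without the 0 h libraries 40 and 25, and without single early libraries 13 to 74. Most named genes whose log2 difference changed sign were those high at 0 h. With the 0 h libraries alone and in the additive fit from 0 h the values were -0.25 and -0.26 for Fosb, -1.04 and -1.03 for Jun, -0.00086 and -0.026 for Atf3, -0.46 and -0.46 for Egr1, -0.057 and -0.12 for Nr4a1, -0.39 and -0.40 for Klf6, -0.50 and -0.51 for Zfp36, -0.29 and -0.25 for Nfkbia, -0.24 and -0.20 for Id1, -0.63 and -0.65 for Hes1, and -0.16 and -0.17 for Neu2. Fos gave 2.17 and 2.19 from -1 h in these fits and Ier2 1.13 and 1.15. Without single libraries Fos ranged from -1.53 to 0.98, Ier2 from -0.69 to 0.58, Jun from -0.31 to 1.27, Klf6 from -0.018 to 1.01 and Neu2 from -0.15 to 0.72. In Cycle 2 alone Fos gave 0.74, Ier2 0.37, Ckm 0.038 and Fibcd1 -0.20. Jun was -0.019 with edgeR and Ier2 0.11 after rescaling. The cause of these moves was not tested. Depth limited genes of a few reads, for which 1 read is worth 0.72 to 1.5 units.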
